A study of Homo sapiens with 16 samples.

Results

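The 53 genes described here are the genes of the count table that encode secreted WNT ligands, their Frizzled, LRP, ROR and LGR receptors, the R-spondins, the secreted inhibitors of the SFRP and DKK families, the TCF/LEF transcription factors and the feedback inhibitors AXIN and NKD. They are named by a rule on gene symbols that uses no measured value, though the set was proposed with earlier results of these data known, and are 53 of the 27037 genes in the table. The samples were polyadenylated RNA sequenced from SK-N-BE(2)C, a cell line with MYCN amplification that is itself a clonal subline of a human neuroblastoma line, so that all groups stand for 1 clone. The 16 samples fell into 4 groups of 4 replicates, and all were cells grown in the same medium and harvested after 5 days of treatment. DMSO was the vehicle control, PB was palbociclib at 1 µM, RA was retinoic acid at 10 µM, and PB+RA was both agents together at these doses. Palbociclib inhibits the cyclin-dependent kinases CDK4 and CDK6 and holds cells before S phase, and retinoic acid is a ligand of the retinoic acid receptors that is used as a differentiating agent in neuroblastoma.

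WNT proteins are secreted, lipid-modified ligands that bind a Frizzled receptor together with a co-receptor. With LRP5 or LRP6 as the co-receptor the cytoplasmic destruction complex, whose scaffold is AXIN, is held inactive, β-catenin accumulates and TCF/LEF factors turn from repression to activation of their targets, among which are AXIN2 and NKD1 as feedback inhibitors. With ROR1 or ROR2 the signal runs without β-catenin and bears on cell shape and polarity. In the neural crest, from which the sympathetic lineage and neuroblastoma arise, WNT signals take part in induction, migration and fate choice.

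Total counts ran from 19515779 to 31620821 per sample. Replicates with the same number deviated together from their group means (correlation 0.330 to 0.573 over 24 pairs), and replicates 1 and 2 stood apart from replicates 3 and 4 in several genes below. This split was not limited to these genes. On principal component 3, an axis of joint variation over all tested genes, replicates 1 and 2 were positive and replicates 3 and 4 negative in every group. The adrenergic markers PHOX2A, HAND2, GATA3, ISL1, TH, DBH and MYCN were all detected. Their summed level was 4987 to 5447 CPM (the count scaled to the library's total) in DMSO, 4860 to 5787 with RA, 7892 to 9088 with PB and 6356 to 8431 with PB+RA. MYCN was the largest part of this sum, with means of 2947 CPM in DMSO, 2635 with RA, 5482 with PB and 4462 with PB+RA. The markers did not all move together. GATA3, TH, DBH and MYCN were called higher with PB, and PHOX2A, HAND2 and ISL1 were not called. With RA TH and DBH were higher and GATA3 lower. With PB+RA TH, DBH and MYCN were higher than in DMSO, and ISL1 was lower than in PB. The summed level of 9 mesenchymal genes was 1026 to 1315 CPM in DMSO, 1828 to 2335 under RA, 778 to 943 under PB and 1027 to 1534 under PB+RA. Of the 7 tested, 4 were higher in RA and 4 lower in PB. With PB+RA they split, with 2 higher than in DMSO (COL3A1 and FN1) and 3 lower (SNAI2, TWIST1 and VIM). The summed level of 5 Schwann cell genes stayed between 18.4 and 54.6 CPM in every sample, and SOX10, the defining marker, was at 0 in every DMSO, RA and PB+RA library. MKI67, TOP2A, E2F2 and E2F8, which mark cycling cells, summed to 983 to 1091 CPM in DMSO, 845 to 911 with RA, 334 to 450 with PB and 111 to 223 with PB+RA. The part of these shifts in the WNT pathway changes was not tested, and in bulk RNA fewer cells of a type and less RNA per cell cannot be told apart.

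Expression of the pathway was led by a few genes in each class. Per kilobase of exon, the level averaged over the 16 samples was 53.8 CPM per kb for the LRP antagonist DKK1, 43.3 for the WNT-binding inhibitor SFRP1, 30.5 for the ligand WNT6, 23.9 for the R-spondin receptor LGR5, 19.5 for the WNT co-receptor ROR2, 18.1 for LRP5 and 12.5 for the receptor FZD7. Then came the transcription factor TCF7L2 at 9.40 and the scaffold AXIN1 at 6.81 CPM per kb. All remaining members averaged below 5 CPM per kb. Among the ligands, WNT6 alone made up 77.5% of the summed WNT level per kilobase in DMSO, 72.6% under RA, 91.4% under PB and 90.4% under PB+RA. Among the receptors, FZD7 made up 23.1% of the summed Frizzled level per kilobase in DMSO, 35.4% with RA, 44.7% with PB and 56.8% with PB+RA. TCF7L2 was the most abundant of its family, and LEF1 had at most 14 reads in any sample.

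**Figure D1:**
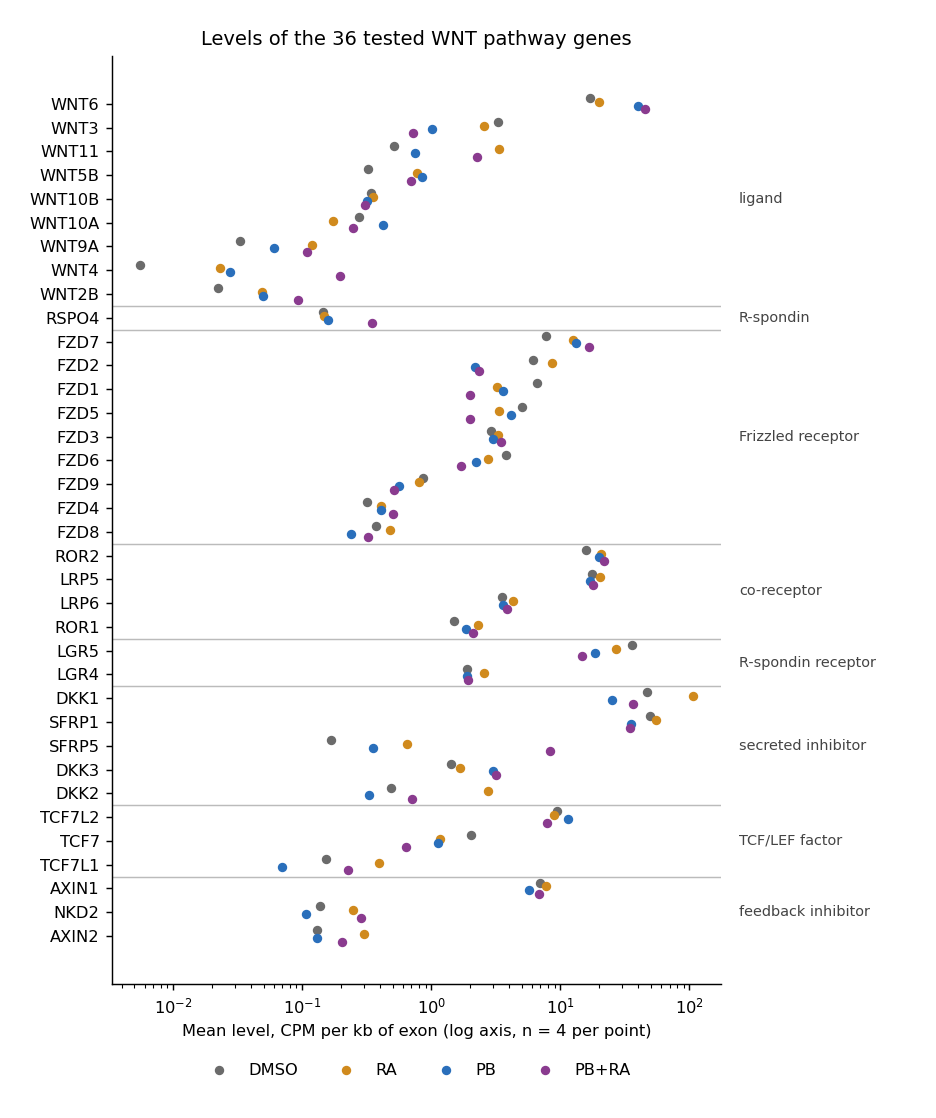
Mean level of each of the 36 tested genes in CPM per kilobase of exon on a log axis, with 1 point for each group (n = 4 samples per point) and genes grouped by role. DKK1, SFRP1 and WNT6 lead their families in every group, while WNT4, WNT9A and WNT2B sit below 0.2 CPM per kb throughout.

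A filter on low counts kept 36 of the 53 genes for testing, among 15415 genes tested in all. A gene was called higher or lower when its Benjamini-Hochberg adjusted p over all tested genes was below 0.05 and its log2 fold change was past 0.5 in either direction (edgeR quasi-likelihood test, used for every adjusted p below). Of the 36, 26 reached the filter's cutoff of 0.409 CPM in all 16 samples and 10 in fewer. WNT4 passed it only through its 4 PB+RA samples and so could pass only by being higher there. WNT9A and WNT2B also reached the cutoff in no DMSO sample, WNT9A in 3 RA and 3 PB+RA samples and WNT2B in 3 RA, 3 PB and 4 PB+RA samples, so that their rises over DMSO are tied to the filter too.

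With PB, 5 of the 36 genes were called higher (13.9%, against 16.9% of all tested genes) and 7 lower (19.4%, against 11.3%). With RA, 9 were higher (25.0%, against 10.8% of all tested genes) and 2 lower (5.56%, against 2.54%), a split that became 11 higher and 6 lower with the replicate block and a correction for GC content and exon length, where 10.4% of all tested genes were higher and 6.11% lower. With PB+RA, 12 were higher (33.3%, against 24% of all tested genes) and 8 lower (22.2%, against 17.9%). The median log2 fold change over the 36 was 0.00 with PB, 0.31 with RA and 0.15 with PB+RA, beside 0.03, 0.01 and 0.04 over all tested genes. These 3 comparisons share the DMSO samples. Leaving out WNT2B, WNT4 and WNT9A, 33 genes remained. With PB 4 of the 33 were higher and 7 lower, beside 16.9% and 11.3% of all tested genes. With RA 7 were higher and 2 lower, beside 10.8% and 2.54%, and with PB+RA 9 were higher and 8 lower, beside 24% and 17.9%. PB+RA against PB alone gave 6 higher (16.7%, against 9.02% of all tested genes) and 6 lower (16.7%, against 7.27%), and PB+RA against RA alone gave 6 higher (16.7%, against 14.9%) and 10 lower (27.8%, against 14.1%). The rises in both include WNT2B and WNT4, and the direction of WNT4 was fixed by the filter. Of the 33 genes, 4 were higher and 6 lower against PB, beside 9.02% and 7.27% of all tested genes. Against RA 4 of the 33 were higher and 10 lower, beside 14.9% and 14.1%. In all, 26 of the 36 genes (72.2%) were called in at least 1 of these comparisons or in the interaction, beside 51.5% of all tested genes. The 26 include WNT2B, WNT4 and WNT9A, which are tied to the filter. When the replicate number was added as a block, 19 genes were called with PB in place of 12, beside 30.8% of all tested genes, and the gained calls are given with each gene below.

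**Figure D2:**
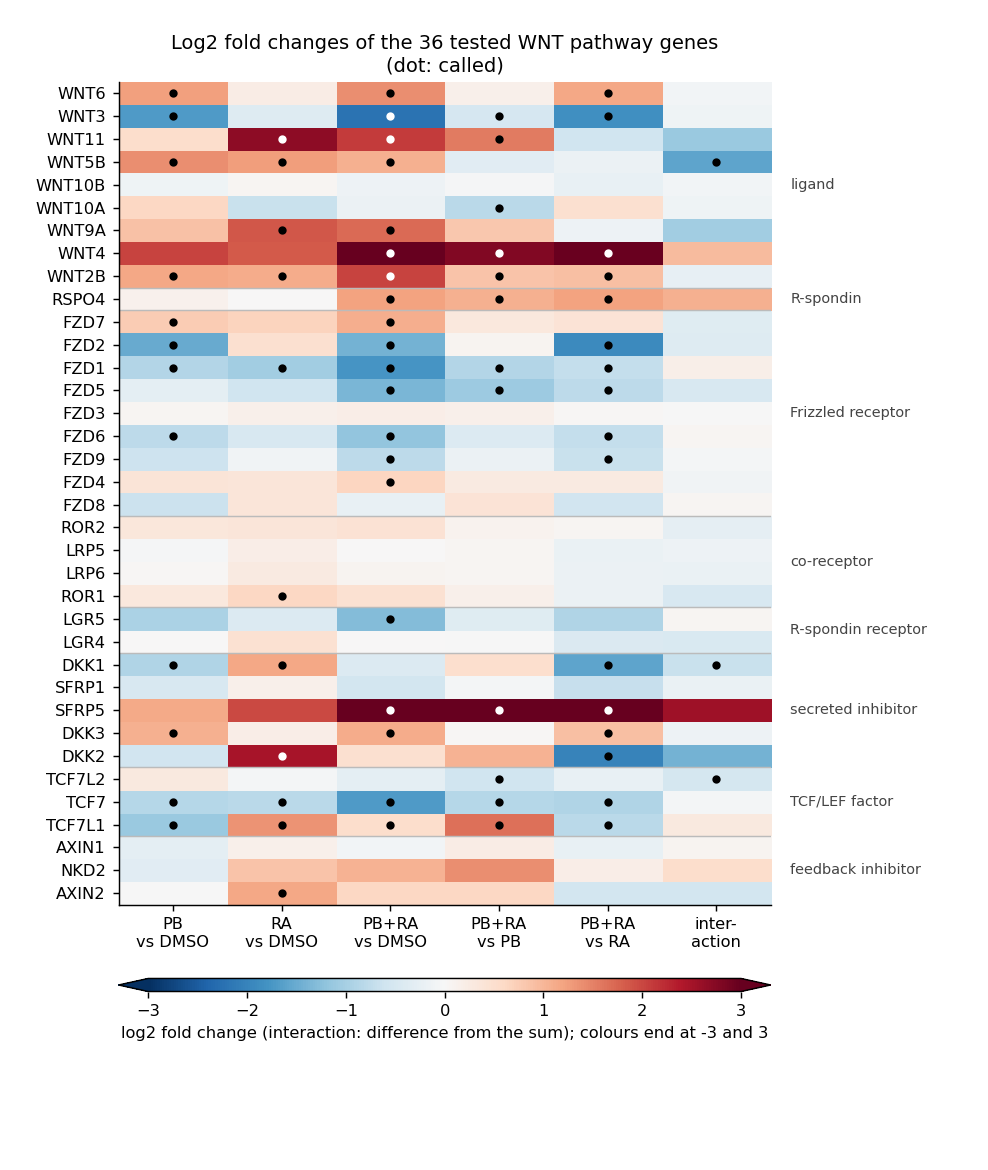
Log2 fold change of the 36 tested genes (rows, grouped by role) in the 5 comparisons and the interaction (columns), from blue for lower to red for higher, with a dot where the gene was called. With PB+RA against DMSO 12 genes carry a dot on the higher side and 8 on the lower side, and AXIN1, LRP5, LRP6 and ROR2 carry none in any column.

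Of the 9 WNT ligands tested, 3 were higher and 1 lower with PB, beside 16.9% and 11.3% of all tested genes. With RA 4 were higher and none lower, beside 10.8% and 2.54%. With PB+RA 6 were higher and 1 lower, beside 24% and 17.9%. These rises include the genes tied to the filter, WNT2B in each comparison, WNT9A with RA and PB+RA, and WNT4 with PB+RA. WNT3 (chr17:44839872-44910520 in GRCh37, minus strand), a ligand that signals through β-catenin, was the ligand called lower. Its level in the 4 replicates was 18.1, 19.97, 15.2 and 17.6 CPM in DMSO, 13.4, 15.0, 13.3 and 13.1 CPM under RA, 5.79, 6.14, 5.04 and 4.66 CPM under PB, and 4.21, 4.78, 3.48 and 2.92 CPM under PB+RA. All samples with palbociclib lay below all samples without it. Palbociclib alone lowered WNT3 by -1.71 ± 0.13 (SE) on the log2 scale (adjusted p = 2.97e-08). The combination lowered it by -2.22 ± 0.14 (adjusted p = 5.16e-10), and PB+RA was lower than PB by -0.51 ± 0.14 (adjusted p = 0.00919). This last difference dropped under the fold threshold without PB replicate 1 or 2 or without PB+RA replicate 3 or 4 (-0.39 to -0.47). With RA alone the difference was -0.38 ± 0.13 (adjusted p = 0.0286), under the fold threshold.

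WNT6 (chr2:219724528-219738955, plus strand), the leading ligand, went the other way with palbociclib. It measured 21.2, 19.5, 39.97 and 35.3 CPM in the DMSO replicates, 23.02, 27.9, 46.0 and 40.2 with RA, 52.2, 65.4, 89.5 and 67.0 with PB, and 73.5, 66.4, 90.7 and 81.6 with PB+RA. Every PB and PB+RA sample was above every DMSO and RA sample, and replicates 3 and 4 were above replicates 1 and 2 in DMSO and RA. The rise was 1.24 ± 0.26 on the log2 scale with PB (adjusted p = 0.000866), 1.40 ± 0.26 for both agents (adjusted p = 0.000211) and 1.17 ± 0.26 for PB added to RA (adjusted p = 0.0013). With RA alone the log2 difference was 0.23 ± 0.26. The sum of all WNT ligands followed WNT6, with a mean of 51.8 ± 8.61 CPM (SD, n = 4) in DMSO, 62.4 ± 13.4 under RA, 83.1 ± 15.2 under PB and 94.8 ± 10.3 under PB+RA.

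WNT11 and WNT5B, ligands best known for signalling without β-catenin, both rose with RA. WNT11 (chr11:75897369-75921780, minus strand) measured 0.957, 1.14, 1.42 and 1.316 CPM in DMSO, 4.30, 4.85, 11.2 and 11.1 with RA, 1.76, 1.79, 1.85 and 1.63 with PB, and 4.06, 4.25, 5.50 and 7.53 with PB+RA. The 8 samples with retinoic acid were all above the 8 without, and within RA replicates 3 and 4 were above replicates 1 and 2. WNT11 rose by 2.68 ± 0.31 on the log2 scale with RA (adjusted p = 1.08e-05), by 2.10 ± 0.31 with both agents (adjusted p = 1.99e-05) and by 1.56 ± 0.31 when RA was added to PB (adjusted p = 0.000905). PB added to RA gave a log2 difference of -0.59 ± 0.28 (adjusted p = 0.087), which with the replicate block was -0.54 and called (adjusted p = 0.00809).

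WNT5B (chr12:1639057-1756378, plus strand) was higher in each treated group. Its replicates measured 1.52, 0.856, 1.71 and 1.35 CPM in DMSO, 2.58, 3.92, 3.43 and 3.20 under RA, 3.35, 3.82, 3.85 and 3.39 under PB, and 2.66, 3.23, 2.99 and 2.82 under PB+RA. No treated sample overlapped the DMSO range. The log2 fold change was 1.25 ± 0.18 with RA (adjusted p = 7.88e-05), 1.39 ± 0.18 with PB (adjusted p = 7.88e-06) and 1.06 ± 0.18 with both agents (adjusted p = 8.05e-05), and neither comparison of PB+RA with a single agent was called (-0.33 ± 0.17 against PB and -0.18 ± 0.17 against RA).

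**Figure D3:**
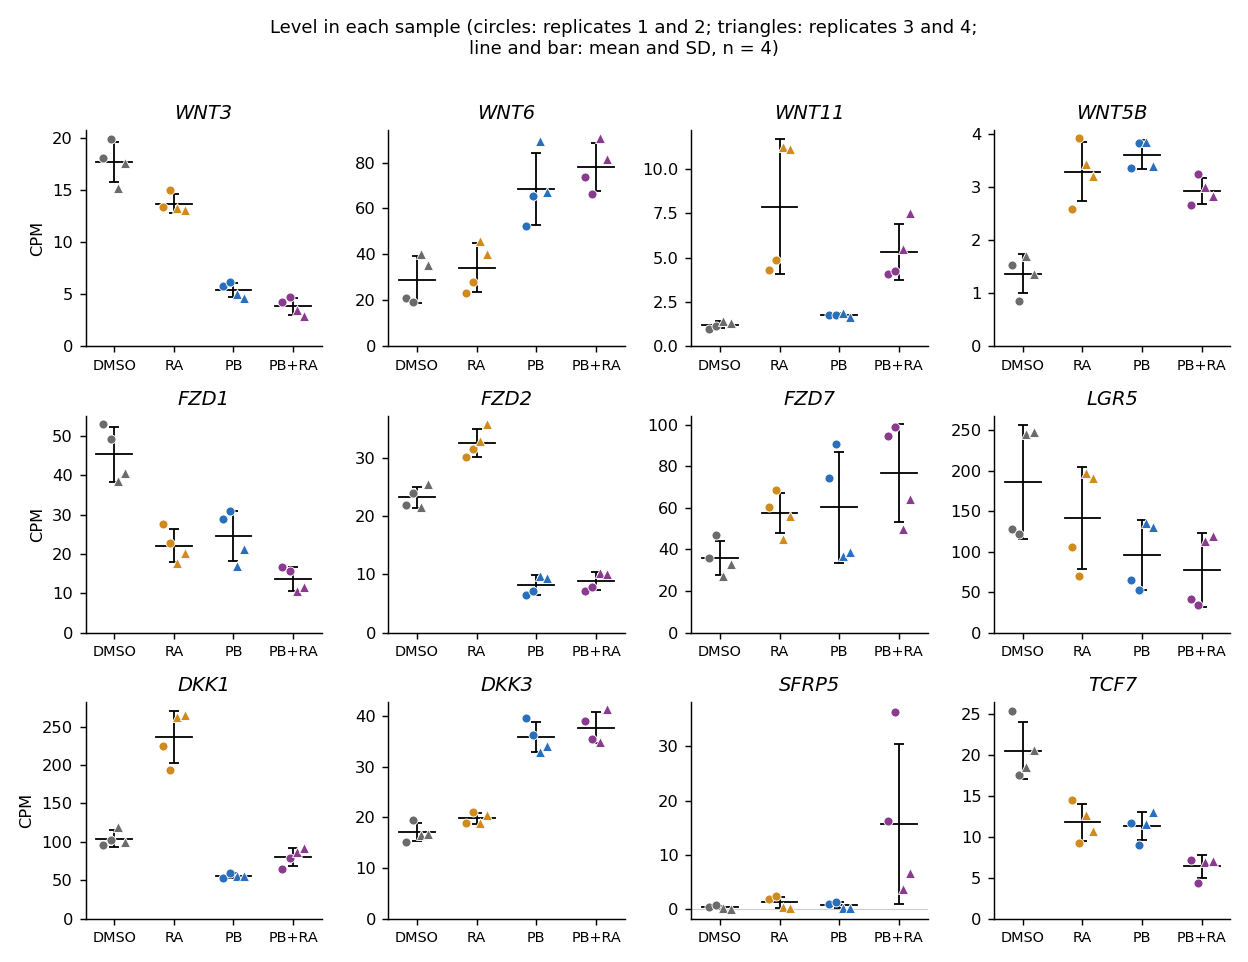
Level of 12 genes in every sample in CPM on linear axes, with circles for replicates 1 and 2, triangles for replicates 3 and 4, and a line and bar for the mean and SD of each group (n = 4). WNT3 and FZD2 are low in all PB and PB+RA samples, DKK1 is high in all RA samples, and LGR5, FZD7 and SFRP5 separate replicates 1 and 2 from replicates 3 and 4.

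The remaining ligands were present below 2 CPM in every sample. WNT4 had 3 reads over the 4 DMSO libraries together and 85 over the 4 PB+RA libraries, a depth-adjusted ratio of 33.9 with a 95% exact interval from 11.2 to 168 that covers counting error only. Its level was 0.676, 1.11, 1.21 and 0.666 CPM in PB+RA and at most 0.264 CPM in any other sample. Because the filter fixed the direction of WNT4, its calls in the comparisons of PB+RA with DMSO, PB and RA are counted above but no test of them is given. In PB it had a fitted log2 difference of 2.06 over DMSO with the replicate block (adjusted p = 0.0412), from few reads. WNT2B averaged 0.272 ± 0.038 CPM (SD, n = 4) in DMSO, 0.615 ± 0.257 under PB, 0.603 ± 0.211 under RA and 1.15 ± 0.314 under both, with a fitted log2 fold change of 2.02 ± 0.34 for PB+RA. It reached the filter's cutoff in no DMSO sample, so its calls over DMSO are counted above but no test of them is given. The smaller calls of WNT2B rested on individual libraries. The PB call (1.17 ± 0.37) was lost without PB replicate 1, and the RA call (1.11 ± 0.36) without RA replicate 2 or 4 or DMSO replicate 3 or 4. The call against PB (0.85 ± 0.31, adjusted p = 0.0422) was lost without PB replicate 3 or 4 or PB+RA replicate 2 or 4 (adjusted p 0.0757 to 0.127). The call against RA (0.91 ± 0.31, adjusted p = 0.0209) was lost without RA replicate 3 or PB+RA replicate 2 (adjusted p 0.0685 and 0.0850). WNT2B shares 2665 exon bases with ST7L on the opposite strand, which stood at 22.1 CPM against 0.659 for WNT2B, and which strand the counts took was not stated, so its values are uncertain.

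WNT9A stood at 0.131 ± 0.0719 CPM in DMSO, 0.474 ± 0.110 with RA and 0.436 ± 0.175 with both agents. The fitted log2 fold changes were 1.85 ± 0.44 with RA and 1.70 ± 0.45 with both. WNT9A passed the filter only through RA and PB+RA samples, so these calls are counted above but no test of them is given. Its PB level of 0.239 ± 0.0969 CPM was not called against DMSO. WNT10A, which lies next to WNT6 on chromosome 2, stood at 0.805 ± 0.185 CPM in DMSO, 0.508 ± 0.205 with RA, 1.24 ± 0.0986 with PB and 0.721 ± 0.181 with PB+RA. It was called in PB+RA against PB (-0.80 ± 0.26, adjusted p = 0.0243), a call lost without PB replicate 1 or 2 or PB+RA replicate 3 or 4 (adjusted p 0.0536 to 0.0788). WNT10A with the replicate block was also higher with PB (0.61, adjusted p = 0.0279) and lower with RA (-0.69, adjusted p = 0.0372). WNT10B was not called in any comparison, with log2 differences between -0.21 and 0.05.

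R-spondins bind LGR receptors and thereby keep Frizzled and LRP proteins on the cell surface. RSPO4 was the R-spondin that passed the filter and measured 0.248, 0.367, 0.474 and 0.503 CPM in DMSO, 0.328, 0.323, 0.301 and 0.676 under RA, 0.429, 0.629, 0.380 and 0.317 under PB, and 0.596, 0.841, 1.13 and 1.23 under PB+RA. It was highest in PB+RA, where the lowest sample overlapped the highest RA and PB samples. The log2 fold change of PB+RA was 1.20 ± 0.32 against DMSO (adjusted p = 0.00342), 1.20 ± 0.33 against RA (adjusted p = 0.0052) and 1.07 ± 0.33 against PB (adjusted p = 0.0169), and this last call was lost without PB replicate 4 (adjusted p = 0.0535). RSPO2 was removed by the filter, with 1, 0, 1 and 0 reads in the DMSO libraries, 7, 4, 18 and 25 with RA, 1, 0, 2 and 1 with PB, and 1, 2, 9 and 7 with PB+RA.

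LGR5 (chr12:71833578-71980090, plus strand), an R-spondin receptor and stem cell marker of several epithelia, was the most abundant member of its family. It measured 128, 121, 246 and 248 CPM in DMSO, 105, 70.4, 197 and 191 under RA, 65.5, 52.1, 135 and 131 under PB, and 41.3, 33.9, 113 and 120 under PB+RA. In every group replicates 3 and 4 were above replicates 1 and 2, and in both replicate sets the order of the groups by mean was DMSO, RA, PB and PB+RA. The fall of 1.30 ± 0.48 on the log2 scale with PB+RA was called (adjusted p = 0.0279) but lost without PB+RA replicate 1 or 2 or DMSO replicate 3 or 4 (adjusted p 0.0688 to 0.0742). With the replicate block LGR5 was lower in PB as well (-0.99, adjusted p = 7.32e-06, against -0.95 ± 0.48 and adjusted p = 0.109 without the block) and in PB+RA against RA (-0.96, adjusted p = 1.1e-05, against -0.89 ± 0.48 and adjusted p = 0.13). LGR4 lay between 9.46 and 17.5 CPM and was not called over all 16 samples. Its log2 differences of 0.45 ± 0.11 with RA (adjusted p = 0.00667) and -0.43 in PB+RA against RA (adjusted p = 0.0045) were under the fold threshold. The latter was called without PB+RA replicate 2 (-0.51, adjusted p = 0.00306). In replicates 1 and 2 alone LGR4 was called with RA (0.57, adjusted p = 0.00438) and in the interaction (-0.67, adjusted p = 0.0416).

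All 9 Frizzled receptor genes in the table were tested. With PB 1 was higher and 3 lower, beside 16.9% and 11.3% of all tested genes. With RA none was higher and 1 lower, beside 10.8% and 2.54%. With PB+RA 2 were higher and 5 lower, beside 24% and 17.9%. The summed Frizzled level moved less than its members, with means of 201 ± 17.9 CPM in DMSO, 199 ± 9.38 with RA, 178 ± 30.1 with PB and 174 ± 19.3 with PB+RA. FZD1 (chr7:90893748-90900641, plus strand) was lower in every comparison. Its replicates measured 53.0, 49.2, 38.6 and 40.5 CPM in DMSO, 27.6, 22.8, 17.8 and 20.1 under RA, 29.0, 30.8, 17.1 and 21.4 under PB, and 16.7, 15.7, 10.5 and 11.5 under PB+RA. The groups ran from DMSO through RA and PB, which overlapped each other, down to PB+RA, whose samples were all below the rest. The log2 fold change of FZD1 was -1.05 ± 0.19 with RA (adjusted p = 0.000777), -0.88 ± 0.19 with PB (adjusted p = 0.00124) and -1.76 ± 0.20 with both agents (adjusted p = 1.38e-06), and the interaction was 0.17 ± 0.28.

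FZD2 (chr17:42634852-42638630, plus strand) followed palbociclib. It measured 21.8, 24.0, 21.6 and 25.5 CPM in DMSO, 30.1, 31.6, 33.0 and 35.8 with RA, 6.39, 7.06, 9.70 and 9.46 with PB, and 7.16, 7.88, 10.3 and 10.1 with PB+RA. The PB and PB+RA samples overlapped each other and lay below all DMSO and RA samples. The log2 fold change of FZD2 was -1.51 ± 0.14 with PB (adjusted p = 1.44e-07), -1.42 ± 0.14 with both agents (adjusted p = 1.03e-07) and -1.90 ± 0.14 when PB was added to RA (adjusted p = 7.49e-09), while its difference with RA alone was 0.48 ± 0.13 (adjusted p = 0.00828), just under the fold threshold.

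FZD7, the leading Frizzled gene, was higher in each treated group by mean, with 35.7 ± 8.22 CPM (SD, n = 4) in DMSO, 60.2 ± 26.7 under PB, 57.4 ± 9.74 under RA and 76.9 ± 23.7 under both. The PB replicates were 74.6, 90.7, 37.02 and 38.6 CPM, so replicates 3 and 4 lay within the DMSO range of 27.1 to 46.8. The rise with PB+RA was 1.08 ± 0.29 on the log2 scale (adjusted p = 0.00463). The PB call (0.76 ± 0.29, adjusted p = 0.0421) was lost without DMSO replicate 1, 3 or 4 or PB replicate 1 or 2 (adjusted p 0.0840 to 0.205) and was 0.99 in replicates 1 and 2 against 0.29 in replicates 3 and 4. With RA the log2 difference was 0.68 ± 0.29 (adjusted p = 0.0864), called with the replicate block at 0.69 (adjusted p = 0.0011).

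The other Frizzled genes called were mostly lower with both agents. FZD5 went from 51.8, 36.7, 23.8 and 29.0 CPM in DMSO to 14.8, 11.4, 12.7 and 16.8 in PB+RA (log2 fold change -1.37 ± 0.23, adjusted p = 9.41e-05), with no overlap. It was 30.8, 16.4, 22.8 and 23.7 CPM in RA and 37.6, 26.3, 26.5 and 25.6 in PB, lower in PB+RA than in PB (-1.09 ± 0.23, adjusted p = 0.00203) and than in RA (-0.77 ± 0.23, adjusted p = 0.0115), the latter lost without RA replicate 1 (adjusted p = 0.0506). With RA alone FZD5 was at -0.60 ± 0.23 (adjusted p = 0.0519) and passed once the block was added (-0.58, adjusted p = 0.00988). FZD6 fell from 15.3 ± 1.70 CPM in DMSO to 8.93 ± 1.11 in PB (-0.78 ± 0.13, adjusted p = 6.74e-05) and 6.85 ± 1.36 in PB+RA (-1.19 ± 0.13, adjusted p = 3.96e-07), and stood at 11.1 ± 0.226 CPM in RA. FZD9 fell from 2.03 ± 0.122 CPM in DMSO to 1.21 ± 0.400 in PB+RA (-0.79 ± 0.26, adjusted p = 0.0141), and with the replicate block was also lower in PB (-0.63, adjusted p = 0.00679). Its call in PB+RA against RA (-0.67 ± 0.26, adjusted p = 0.0413) was lost without RA replicate 3 or 4 or PB+RA replicate 1, 2 or 3 (adjusted p 0.0503 to 0.152).

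FZD4 was the other Frizzled gene called higher, at 2.32 ± 0.610 CPM in DMSO and 3.69 ± 0.216 in PB+RA (0.65 ± 0.20, adjusted p = 0.01). It shares 1399 exon bases with PRSS23 on the opposite strand, which stood at 24.0 CPM against 3.01 for FZD4 and was itself higher in PB+RA by 1.53 on the log2 scale, so the FZD4 value is uncertain without the strand. FZD8 was not called over all 16 samples without the block and was lower in PB with it (-0.62, adjusted p = 0.0456). It was also lower in PB without DMSO replicate 3 (-0.77, adjusted p = 0.0491) and in PB+RA than in RA without RA replicate 1 (-0.73, adjusted p = 0.0363). FZD3, at 34.8 to 53.1 CPM, showed log2 differences between -0.01 and 0.20 and no call.

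The co-receptors were the steadiest class, with 1 call among 4 genes and 6 tests. LRP5 stood at 108 ± 7.28 CPM in DMSO, 125 ± 11.96 under RA, 105 ± 7.99 under PB and 111 ± 12.6 under PB+RA, and LRP6 at 36.8 ± 2.86, 44.7 ± 2.72, 37.4 ± 2.11 and 39.995 ± 6.36 CPM. The largest LRP difference was 0.27 ± 0.09 on the log2 scale, for LRP6 with RA (adjusted p = 0.0237). ROR2 stood at 93.4 ± 9.47, 121 ± 14.5, 117 ± 15.6 and 128 ± 27.5 CPM in DMSO, RA, PB and PB+RA, with log2 differences over DMSO of 0.36, 0.33 and 0.43, all under the fold threshold. ROR1 was called higher with RA, from 7.91, 11.5, 10.1 and 10.5 CPM in DMSO to 12.7, 12.9, 16.9 and 19.6 (0.63 ± 0.17, adjusted p = 0.00829). Without RA replicate 4 the ROR1 difference was 0.47, under the fold threshold.

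Among the secreted inhibitors, DKK1 moved in opposite directions with the single agents. DKK1 (chr10:54074041-54077802, plus strand), which binds LRP5 and LRP6 and blocks β-catenin signalling, is both an inhibitor and a reported target of the pathway. Its level was 95.8, 102, 120 and 99.6 CPM in DMSO, 224, 194, 263 and 265 with RA, 52.8, 60.1, 55.3 and 55.7 with PB, and 65.1, 78.5, 86.8 and 92.3 with PB+RA. The 4 groups did not overlap and ran from RA through DMSO and PB+RA down to PB. DKK1 rose by 1.17 ± 0.11 on the log2 scale with RA (adjusted p = 1.52e-06) and fell by 0.90 ± 0.11 with PB (adjusted p = 5.46e-06). PB added to RA lowered it by 1.57 ± 0.11 (adjusted p = 9.21e-09), RA added to PB gave 0.50 ± 0.11 (adjusted p = 0.0026), at the fold threshold but under it, and PB+RA against DMSO gave -0.40 ± 0.11 (adjusted p = 0.00457).

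DKK1 was also the only gene of the 37 with a RefSeq promoter entry whose window, reaching from 250 bases before to 50 bases after the start, held the TCF/LEF letters CTTTGAA or CTTTGAT on either strand. The 250 bases before its start (GRCh38.p14, chr10:52314031-52314280, plus strand, RefSeq) are shown because of this match, and those before a start of WNT5B (GRCh38.p14, chr12:1616806-1617055, plus strand) because this ligand also departed from the sum of the single agents. Capitals mark CTTTGAA, at 95 to 89 bases before the start of DKK1, and the E2F letters TTGCCGC before WNT5B.
DKK1: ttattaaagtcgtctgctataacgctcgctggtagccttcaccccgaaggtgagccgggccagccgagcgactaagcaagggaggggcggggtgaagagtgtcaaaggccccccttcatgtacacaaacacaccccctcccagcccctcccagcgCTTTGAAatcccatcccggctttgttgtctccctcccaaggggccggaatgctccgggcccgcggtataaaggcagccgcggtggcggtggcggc
WNT5B: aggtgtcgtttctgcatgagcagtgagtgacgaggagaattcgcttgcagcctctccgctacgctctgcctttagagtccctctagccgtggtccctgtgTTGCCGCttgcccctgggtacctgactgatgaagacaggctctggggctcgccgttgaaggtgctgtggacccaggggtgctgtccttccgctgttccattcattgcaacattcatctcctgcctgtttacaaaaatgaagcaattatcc

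The TCF/LEF letters were in 6.86% of all 35116 RefSeq promoter windows and in 1 of the 45 windows of these genes. The E2F letters TTGGCGC or TTCCCGC or TTGCCGC or TTCGCGC were in 13.0% of all windows and in 7 of the 45 (FZD9, LRP5, RSPO4, WNT1, WNT2B, WNT5B and WNT9A), a share of 15.6% that is near the background. Direct repeats of the retinoid receptor letters AGGTCA or GGGTCA or AGTTCA or GGTTCA with a gap of 1, 2 or 5 bases were in 0.259% of all windows and in none of the 45. These are matches of letters in short windows and describe no binding.

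DKK2, a second LRP-binding member of the family, measured 0.993, 1.019, 4.05 and 2.3998 CPM in DMSO, 5.08, 5.42, 19.0 and 18.4 under RA, 0.601, 0.871, 2.19 and 2.08 under PB, and 1.67, 1.68, 3.76 and 5.12 under PB+RA. All RA samples were above all DMSO samples, and in each group replicates 3 and 4 were above replicates 1 and 2. DKK2 rose by 2.47 ± 0.59 on the log2 scale with RA (adjusted p = 0.00489) and fell by 2.00 ± 0.58 when PB was added to RA (adjusted p = 0.00906). With the replicate block it was also lower in PB (-0.56, adjusted p = 0.0186), higher in PB+RA (0.51, adjusted p = 0.0121) and higher in PB+RA than in PB (1.07, adjusted p = 0.00011).

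DKK3, a divergent member of the family, was higher wherever palbociclib was present. It measured 15.2, 19.6, 16.6 and 16.8 CPM in DMSO, 18.9, 21.1, 19.0 and 20.4 with RA, 39.7, 36.3, 33.0 and 34.2 with PB, and 39.0, 35.6, 34.9 and 41.5 with PB+RA. The samples with palbociclib lay above all others with no overlap. DKK3 rose by 1.07 ± 0.08 on the log2 scale with PB (adjusted p = 2.34e-08), by 1.12 ± 0.08 with both agents (adjusted p = 3.93e-09) and by 0.91 ± 0.08 when PB was added to RA (adjusted p = 1e-07). It shares 5681 exon bases with USP47 on the opposite strand, which stood at 50.1 CPM against 27.6 for DKK3 and whose log2 difference over DMSO was -0.24 with PB and -0.34 with PB+RA, so the DKK3 values are uncertain without the strand.

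SFRP5 (chr10:99526508-99531756, minus strand), a secreted decoy that binds WNT ligands, had the largest fitted log2 fold change over DMSO of the 36 genes. It measured 0.390, 0.693, 0.126 and 0.0387 CPM in DMSO, 1.88, 2.39, 0.301 and 0.270 under RA, 0.858, 1.35, 0.190 and 0.272 under PB, and 16.2, 36.3, 3.72 and 6.61 under PB+RA. Replicates 1 and 2 were above replicates 3 and 4 in each group, and all PB+RA samples were above all others. PB+RA exceeded DMSO by 5.65 ± 0.94 on the log2 scale (adjusted p = 8.43e-05), PB by 4.52 ± 0.87 (adjusted p = 0.000905) and RA by 3.67 ± 0.79 (adjusted p = 0.00119), and the excess over DMSO was 5.58 in replicates 1 and 2 alone and 5.73 in replicates 3 and 4 alone. The DMSO libraries held 11, 17, 4 and 1 SFRP5 reads, so the size of the excess, above all in replicates 3 and 4, rests on few reads. The single agents were not called without the block (1.98 ± 1.06 with RA and 1.13 ± 1.17 with PB), and were with it (1.92, adjusted p = 1.3e-05, and 1.08, adjusted p = 0.00699). The share of SFRP5 in the summed SFRP level per kilobase went from 0.337% in DMSO to 19.5% in PB+RA, or 11.1% without PB+RA replicate 2.

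SFRP1, the abundant member, was not called over all 16 samples without the block, at 163, 169, 289 and 308 CPM in DMSO, 170, 166, 317 and 382 with RA, 136, 139, 180 and 207 with PB, and 97.3, 116, 178 and 260 with PB+RA. Replicates 3 and 4 were again above replicates 1 and 2. SFRP1 with the replicate block was lower in PB+RA than in DMSO (-0.58, adjusted p = 0.000362) and than in RA (-0.70, adjusted p = 0.000108), and both differences were also called without the block when PB+RA replicate 4 was left out (-0.87, adjusted p = 0.0417, and -0.99, adjusted p = 0.0285). The summed DKK level was 124 ± 12.2 CPM in DMSO, 269 ± 40.9 under RA, 93.2 ± 2.94 under PB and 122 ± 14.1 under PB+RA.

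Among the TCF/LEF factors, which carry the β-catenin signal to the genome, TCF7 was lower in each treated group. It measured 25.4, 17.6, 18.5 and 20.6 CPM in DMSO, 14.5, 9.30, 12.7 and 10.7 with RA, 11.7, 8.95, 11.6 and 13.0 with PB, and 7.24, 4.34, 6.95 and 7.02 with PB+RA. DMSO lay above the single agents, which overlapped each other, and PB+RA lay below all. Its log2 fold change was -0.81 ± 0.17 with RA (adjusted p = 0.00177), -0.86 ± 0.17 with PB (adjusted p = 0.0005) and -1.71 ± 0.18 with both agents (adjusted p = 2.96e-07), with an interaction of -0.05 ± 0.25. It shares 210 exon bases with SKP1 on the opposite strand, which stood at 302 CPM and whose log2 difference over DMSO lay between 0.00 and 0.22, so the TCF7 values are uncertain as well.

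TCF7L1, a factor that acts mainly as a repressor, measured 0.679 ± 0.149 CPM in DMSO, 1.75 ± 0.178 under RA, 0.308 ± 0.0888 under PB and 1.01 ± 0.201 under PB+RA. Its RA samples, from 1.56 to 1.98 CPM, lay above all DMSO samples and its PB samples, from 0.193 to 0.407 CPM, lay below them. TCF7L1 rose by 1.35 ± 0.21 on the log2 scale with RA (adjusted p = 0.000138) and by 1.65 ± 0.26 when RA was added to PB (adjusted p = 9.89e-05), and fell by 1.12 ± 0.26 with PB (adjusted p = 0.00176) and by 0.82 ± 0.21 when PB was added to RA (adjusted p = 0.00299). The call in PB+RA against DMSO (0.53 ± 0.22, adjusted p = 0.0425) was lost without PB+RA replicate 2, 3 or 4 or DMSO replicate 1, 2 or 3 (adjusted p 0.0539 to 0.195) and with DESeq2 (adjusted p = 0.108). TCF7L2, the most abundant of the family, measured 63.0 ± 5.34 CPM in DMSO, 60.4 ± 5.77 with RA, 77.4 ± 4.71 with PB and 52.6 ± 8.59 with PB+RA, and was called in PB+RA against PB (-0.59 ± 0.10, adjusted p = 0.000234).

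Of the intracellular inhibitors, AXIN2, a widely used readout of β-catenin signalling, was called higher with RA and not with PB. It measured 1.10, 0.408, 0.474 and 0.735 CPM in DMSO, 1.56, 1.62, 1.39 and 1.62 under RA, 0.772, 0.435, 0.998 and 0.498 under PB, and 1.07, 0.664, 1.41 and 1.08 under PB+RA. The RA samples were all above the DMSO samples. The RA difference was 1.17 ± 0.30 on the log2 scale (adjusted p = 0.00702), and the PB and PB+RA differences were -0.01 ± 0.33 and 0.61 ± 0.32 (adjusted p = 0.99 and 0.0996). The RA call was lost in replicates 1 and 2 alone (1.04, adjusted p = 0.100). AXIN2 was called higher in PB+RA than in DMSO without DMSO replicate 1 (0.93, adjusted p = 0.0168) and without PB+RA replicate 2 (0.75, adjusted p = 0.0496). The same call appeared in replicates 3 and 4 alone (1.01, adjusted p = 0.0229). With the replicate block AXIN2 was lower in PB+RA than in RA (-0.58, adjusted p = 0.0493). It shares 1316 exon bases with a gene on the same strand that is absent from the count table. AXIN1, the constitutive scaffold, was steady, with 38.3 to 59.7 CPM over all samples and its largest log2 difference, -0.30 ± 0.07 with PB (adjusted p = 0.00116), under the fold threshold. NKD2, which binds Dishevelled, stood at 0.396 ± 0.147 CPM in DMSO, 0.717 ± 0.403 with RA, 0.310 ± 0.243 with PB and 0.8286 ± 0.207 with PB+RA and was not called over all 16 samples without the block. It was called in PB+RA against PB with the block (1.39, adjusted p = 0.0425), with DESeq2 (1.40, adjusted p = 0.0498) and without PB replicate 2 (1.84, adjusted p = 0.0363), and in PB+RA against DMSO when only those groups were fitted (1.028, adjusted p = 0.0183).

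The 2-by-2 design asked whether both agents together changed a gene by the sum of their single log2 fold changes. Of the 36 genes, 3 departed from the sum, all downwards (8.33%, against 3.02% of all tested genes), and none upwards (against 0.415%). The median interaction was -0.14 over the 36 and -0.04 over all tested genes. WNT5B had the largest called departure, -1.58 ± 0.25 (adjusted p = 0.00178), since PB+RA reached 1.06 where the single log2 fold changes were 1.25 and 1.39. This call was kept when any single library was left out. DKK1 departed by -0.68 ± 0.16 (adjusted p = 0.019), and its call was lost without DMSO replicate 1 or RA replicate 3 or 4 (-0.58 to -0.59, adjusted p 0.0611 to 0.0670). TCF7L2 departed by -0.52 ± 0.14 (adjusted p = 0.041), with a log2 fold change of 0.30 in PB and -0.07 in RA but -0.29 in PB+RA, and its call was lost when any of 14 of the 16 libraries was left out (adjusted p 0.0514 to 0.132).

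With the replicate block 6 genes were called in the interaction in place of 3, beside 7.6% of all tested genes (1.23% above the sum and 6.36% below it). The added genes were SFRP5, above the sum (2.57, adjusted p = 0.000166), and DKK2 and WNT11, below it (-1.38, adjusted p = 0.000642, and -1.10, adjusted p = 0.017). Without the block these were 2.55 ± 1.48, -1.42 ± 0.87 and -1.12 ± 0.44. FZD1 and TCF7, lower in each treated group, and WNT3, WNT6 and DKK3, which followed palbociclib, had interactions between -0.16 and 0.17, and none was called.

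**Figure D4:**
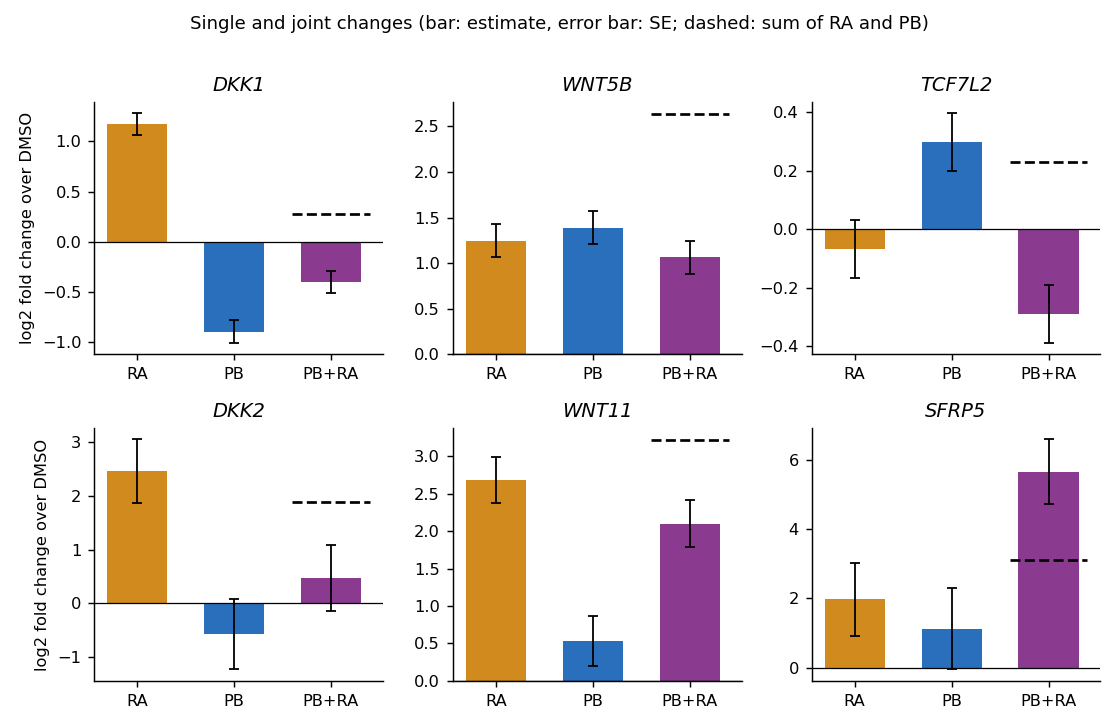
Log2 fold change over DMSO of 6 genes with RA, PB and PB+RA (bars, with SE), and the sum of the RA and PB values as a dashed line on the PB+RA bar. For DKK1, WNT5B, TCF7L2, DKK2 and WNT11 the PB+RA bar ends below the dashed sum, and for SFRP5 at 5.65 it ends above it.

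The 17 genes removed by the filter had few reads in every sample. LEF1, NKD1, LGR6, WNT8B and RSPO2 had at most 13 to 25 reads in any sample, SFRP4 and WNT7B at most 10 and 9, and DKK4, RSPO1, RSPO3, SFRP2, WNT1, WNT2, WNT3A, WNT5A, WNT7A and WNT9B at most 1 to 4. A count of 0 allows up to 0.0949 CPM in the deepest library and 0.154 CPM in the shallowest. WNT5A, the usual ligand of ROR2, had at most 4 reads in a library while ROR2 itself was at 93.4 CPM in DMSO. WNT3A and WNT1, the ligands most used to start β-catenin signalling in culture, had at most 1 and 2 reads in a library, and differences between groups were not detectable for them at this depth. When no filter was used, 7 of the 17 were called in at least 1 comparison. With RA these were NKD1 (9 reads over the DMSO libraries and 34 over RA, adjusted p = 0.0159), LGR6 (4 and 20 reads, adjusted p = 0.0325), SFRP4 (2 and 28 reads, adjusted p = 0.0091) and RSPO2 (2 and 54 reads, adjusted p = 0.000349). With PB it was WNT8B (10 and 41 reads, adjusted p = 0.000208). With PB+RA, RSPO2 (2 and 19 reads, adjusted p = 0.0129) and LGR6 (4 and 24 reads, adjusted p = 0.0049) were higher than in DMSO and WNT9B lower (6 and 0 reads, adjusted p = 0.0496). WNT5A was lower in PB+RA than in RA (0 against 7 reads, adjusted p = 0.0429). These calls rest on few reads, and for WNT9B and WNT5A the 0 cannot be told from a low level. Of all 27037 genes, the fit without the filter called 1989 with RA, 4450 with PB, 7017 with PB+RA and 4568 in PB+RA against RA.

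Of 55 other pathway genes taken from lists of signal transduction, ligand processing, planar polarity and reported targets, 48 were tested, and 6 were higher and 8 lower with PB (12.5% and 16.7%, against 16.9% and 11.3% of all tested genes), 7 higher and 3 lower with RA (14.6% and 6.25%, against 10.8% and 2.54%), and 10 higher and 13 lower with PB+RA (20.8% and 27.1%, against 24% and 17.9%). The median log2 fold change of the 48 with PB+RA was 0.02. The largest rises with PB+RA were those of the reported target MYC, from 2.21 ± 0.761 to 9.43 ± 0.895 CPM (log2 fold change 2.06 ± 0.20, adjusted p = 9.91e-08), the destruction complex gene APC2 (1.05 ± 0.10, adjusted p = 7.12e-08) and the corepressor TLE3 (0.84 ± 0.11, adjusted p = 3.59e-06). The largest falls were those of the surface glycoprotein TPBG (-1.53 ± 0.21, adjusted p = 5.74e-06), the DKK co-receptor KREMEN2, from 26.5 ± 3.36 to 11.1 ± 1.78 CPM (-1.28 ± 0.12, adjusted p = 1.24e-07), and the polarity cadherin CELSR1 (-1.21 ± 0.20, adjusted p = 5.18e-05). CTNNB1, the β-catenin gene itself, stood at 324 ± 16.5 CPM in DMSO and was not called in any comparison, with log2 differences from -0.08 to 0.12.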

How the data were processed

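RNA was measured in 16 samples, 4 per group. Per the labels and the study's methods, the libraries were directional and paired-end, and the authors trimmed reads with Trim Galore 0.6.4, aligned them to hg19 with STAR 2.6.1d and deposited raw counts per gene. The annotation and the strand counted are not given in the sources used here. The deposited CPM equal the count over the library total. A deposited table of the authors' own comparisons (DESeq2 1.32.0) was not used.

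Counts were tested over all genes with edgeR 4.0.16 (limma 3.58.1, R 4.3.3): filterByExpr (about 10 counts in at least 4 samples), TMM factors (0.983 to 1.02), robust quasi-likelihood tests in 1 fit over 4 groups, and Benjamini-Hochberg adjustment. An SE is the log2 fold change over the square root of F. The scripts were tested on simulated data. The alternatives were other size factors, filters, fold minima and sample sets, DESeq2 1.42.0, the replicate block, and the block with a GC and exon-length correction (95.2% of tested genes had gene models). Replicate numbers come from the sample titles. Same-numbered samples correlated in all 24 pairs, but samples with different numbers were not compared. These correlations cannot separate pairing by number from the split between replicate sets described above. Whether the numbers pair the samples was therefore not tested, and the replicate block takes it as given. Same-group libraries differed by more than counting noise (chi-square per gene 3.00 to 30.2). The p-values measure the spread between replicates, which the study calls biological.

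The genes and lists were chosen with earlier results of these data known. Every gene called in at least 1 test was named with its values, the others by range, and of the other pathway genes the 3 largest called rises and falls with PB+RA. Positions are from the GENCODE annotation on GRCh37. The table gave promoter entries for 37 of the 53 genes. A further adrenergic marker gene is not reported here.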

Additional observations from a re-analysis of the deposited data

Results flagged for a closer look

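In 5 of the 144 groups of 4 replicate values, 1 sample stood far from the other 3, with a gap to the nearest of them that was past Dixon's 95% critical share of the group's range. Chance flags about 1 in 20 such groups, so 5 of 144 is no more than chance gives. FZD5 in PB replicate 1 was at 37.6 CPM against 25.6 to 26.5 in the other PB replicates (gap 0.921 of the range). RSPO4 in RA replicate 4 was at 0.676 CPM against 0.301 to 0.328 (0.930). TCF7 in PB+RA replicate 2 was at 4.34 CPM against 6.95 to 7.24 (0.901). WNT3 in RA replicate 2 was at 15.0 CPM against 13.1 to 13.4 (0.875). WNT9A in PB replicate 3 was at 0.0951 CPM against 0.272 to 0.300 (0.860).

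The effect of RA differed between cells without and with PB, by the interaction test, for WNT5B (-1.58 on the log2 scale, adjusted p = 0.00178), DKK1 (-0.68, adjusted p = 0.019) and TCF7L2 (-0.52, adjusted p = 0.041). The DKK1 call was lost without DMSO replicate 1 or RA replicate 3 or 4 and with no filter. The TCF7L2 call was lost when any of 14 libraries was left out, with no filter, with RLE size factors, with DESeq2 and with the block and the GC and length correction. With the replicate block SFRP5, DKK2 and WNT11 were called too.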

How the results depend on the processing

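Of 74 calls of a gene in a comparison, 39 were kept under every alternative that tested them and 48 under every one but a log2 fold minimum of 1, and none changed direction. A stricter filter tested 61 of the 74 and fits on only the groups compared 67. With the replicate block no call was lost and 19 genes were called with PB in place of 12 and 6 in the interaction in place of 3. With the block and the GC and length correction the counts were 19 with PB, 17 with RA in place of 11, and 5 in the interaction, and 3 calls were lost (FZD4 and TCF7L1 with PB+RA, TCF7L2 in the interaction). A log2 fold minimum of 1 left 7 genes with PB, 6 in PB+RA against PB in place of 12, 8 in PB+RA against RA in place of 16, and 1 in the interaction. Replicates 1 and 2 alone gave 7 in PB+RA against PB, and replicates 3 and 4 alone gave 17 there and 5 in the interaction. Without the filter 1 gene was called in the interaction. Leaving out each library in turn gave 10 to 13 genes with PB, 11 to 12 with RA, 18 to 21 with PB+RA, 10 to 13 and 14 to 18 in PB+RA against PB and RA, and 1 to 3 in the interaction, where the 1 came without RA replicate 3 or 4 or without DMSO replicate 1. Of the 74 calls, 59 were kept in all these fits, which added 22 calls of a gene in a comparison. DESeq2 lost 3 calls (TCF7L1 with PB+RA, WNT2B against PB, TCF7L2 in the interaction). The causes were not tested. Depth limits the genes under 0.154 CPM, for which a count of 0 cannot be told from a low level.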
